A study of Rattus norvegicus with 8 samples.

Results

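Acyl-CoA synthetases of the long-chain family and acyl-CoA thioesterases were compared between the livers of male Sprague Dawley rats on a high-fat diet and on a normal diet, which serves as the control. The genes examined were Acsl1, Acsl3, Acsl4, Acsl5, Acsl6, Acot1, Acot2, Acot7, Acot8 and Acot12, 10 of the 25512 gene names on the array. Every non-control probe whose gene name equals one of these symbols was taken, which gave 21 of 46883 probes in 39 spots. Sprague Dawley rats are an outbred stock. One group had received a diet labelled 60% high fat for 12 weeks and the other a normal diet for 12 weeks, both labelled with a body weight of 180 to 200 g. The labels name no other treatment or allele, nor the composition of either diet. Each group had 4 liver samples, each hybridised to its own 1-colour Agilent array, which reads a transcript as the brightness of 60-base probes.

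A free fatty acid has to be joined to coenzyme A before it can be oxidised, stored in triglyceride or built into membrane lipid, and the long-chain acyl-CoA synthetases carry out this joining. The acyl-CoA thioesterases cut the same bond and release the fatty acid and coenzyme A. Of those examined, some act in the cytosol and others in mitochondria or peroxisomes. In liver the synthetase Acsl1 and several thioesterases are known targets of PPAR-alpha, the nuclear receptor that senses fatty acids.

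Where probes of these genes share sequence, their readings are not separate measurements, so the shared letters are shown first. Probes are numbered within each gene, and coordinates are those of the array files on rn4. Where no coordinates follow a probe's name, its position was not analysed here, nor was the exon or untranslated region a probe lies in. Acsl3 has probe 2 at chr9:78106570-78106629 on the plus strand, and its first 24 bases are the last 24 of probe 1. For Acsl5, 57 of the 60 bases of probe 1 stand in probe 2 (chr1:261597606-261598138, plus strand, a span of 533 bases), so this pair reads almost the same site. The stretches below run 5′ to 3′, with the bases shared within each pair in capitals.
Acsl3 probe 1: ctccagTTTGCTTTGGCATCTATGACTGTG
Acsl3 probe 2: TTTGCTTTGGCATCTATGACTGTGtttgtc
Acsl5 probe 1: AAATCCTTTGAGCAGGTCAAGAGCATCTTT
Acsl5 probe 2: AAATCCTTTGAGCAGGTCAAGAGCATCTTT

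Acot1 and Acot2 are close paralogs and direct neighbours on chromosome 6 in the GRCr8 RefSeq gene table. Probe 2 of Acot1 and probe 2 of Acot2 (chr6:108023141-108023200, plus strand) match at 44 of 54 aligned bases, or 81.5%. Array annotation for probe 2 of Acot1 names the Acot2 transcript as its next best hit, with 81.67% identity over 60 bases. The first 30 aligned bases are shown with identical bases in capitals.
Acot1 probe 2: cAgGTCAAAATGACCAAgGATGGcCTCaaG
Acot2 probe 2: aAaGTCAAAATGACCAAaGATGGtCTCttG
Counted from base 1 of the Acot1 probe, with its base first and that of the Acot2 probe last, the differences in this stretch are C7A, G9A, G24A, C30T, A34T and A35T. No pair of probes of different member genes shared an unbroken run longer than 14 bases. Cross-hybridisation between the paralogs was not tested.

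Between 50.4% (control replicate 1) and 71.9% (control replicate 4) of probes stood well above background on each array, and high-fat replicate 1 had 56.4%. These 2 arrays, control replicate 1 and high-fat replicate 1, had the fewest, so results are also given without them where they move. A single slide carried all 8 arrays in 2 rows, and each row held 2 control and 2 high-fat arrays. Correlations across probes were 0.960 to 0.980 between the groups and 0.970 to 0.985 within them. The 10 hepatocyte markers examined, albumin among them, were all measured, and 0 passed the threshold (median log2 change -0.016, summed linear level 631 to 833 on control and 647 to 814 on high-fat arrays). Among the markers of other cells, 2 of 7 stellate cell genes passed as higher on the high-fat diet, Lrat (adjusted p = 0.0038 by limma) and Reln (log2 change 1.34, adjusted p = 0.015). The stellate list had a median of 0.084 and a summed level of 2.42 to 3.29 on control and 3.63 to 5.56 on high-fat arrays. Its genes went both ways, with 4 positive and 3 negative changes. Des was lower with groups that did not overlap (-0.70, adjusted p = 0.13 by limma). Of the neural genes, Mbp passed as lower (-0.92, adjusted p = 0.044), 1 of 3 tested. The other 2, Gfap (0.67) and Snap25 (0.50), had positive changes that did not pass, and the neural list had a median of 0.50. In the erythroid, clock, macrophage, cholangiocyte, endothelial, adipocyte and muscle lists 0 genes passed. Of 5 erythroid markers tested 4 had a positive log2 change (median 1.05, summed level 28.0 to 71.9 on control and 71.8 to 115 on high-fat arrays). Of 14 clock genes 12 were positive (median 0.56, summed level 4.17 to 11.4 and 6.58 to 15.4). All 9 macrophage markers tested were negative (median -0.26, summed level 47.6 to 64.7 and 33.4 to 49.7), with medians of -0.022 in the first slide row and -0.49 in the second. All 4 cholangiocyte markers tested were also negative (median -0.61, summed level 0.787 to 1.13 and 0.546 to 0.766), with row medians of -0.59 and -0.68. The 6 endothelial markers had a median of -0.014 (summed level 7.83 to 14.6 and 11.1 to 15.8). Of the adipocyte markers Cfd was tested (-0.13), Adipoq and Retn were under the filter, and Lep stood well above background on 0 arrays. Of the muscle markers Ckm (0.58) and Myl1 (0.49) were tested, Tnnt3 was under the filter, and Acta1 and Myh4 stood well above background on 0 arrays. The part of these markers in the results below was not tested.

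By the main test, limma with p-values adjusted over all 31547 tested probes by Benjamini and Hochberg, 0 of the 18 tested member probes and 0 of the 9 tested member genes passed an adjusted p of 0.05. In the same test 0.907% of all tested probes and 0.877% of the 18596 tested genes passed, each gene standing for its brightest tested probe. At an unadjusted p under 0.05 there were 6 member genes, 4 with a positive and 2 with a negative change, against 15.6% of all tested genes. Groups did not overlap for 5 member genes, 2 of them higher and 3 lower on the high-fat diet. Among all tested genes this held for 11.1%, with 4.87% higher and 6.26% lower. With 9 member genes these shares rest on few genes, and nothing is drawn from them about the members as a group. The 18 probes were those well above background on at least 4 of the 8 arrays, counted without regard to diet. Both probes of Acsl6 and probe 2 of Acot1 were well above background on 0 arrays and were not tested.

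Among the synthetases the changes ran in both directions, and their median log2 change was -0.15 (4 tested genes), against 0.003 over all tested genes. Acsl3 had the lowest p, with a negative change by both probes. The thioesterases had a median of 0.37 over 5 tested genes, which was 0.054 after normexp, another background correction, run with an added offset of 50. The middle value after normexp was that of Acot1, near the background, which went from 0.61 to 0.054. The other thioesterases moved little, Acot7 from 0.37 to 0.40, Acot12 from 0.61 to 0.59, Acot8 from -0.43 to -0.42 and Acot2 from -0.21 to -0.22. Acot8 had a negative change, and Acot7, Acot12 and Acot1 had positive ones. In each liver sample a smaller number of cells of a type and less RNA per cell cannot be told apart. Values below are normalized log2 intensities, where 0 is the 75th percentile over probes that stood well above background throughout, and levels of different probes are not compared.

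**Figure D1:**
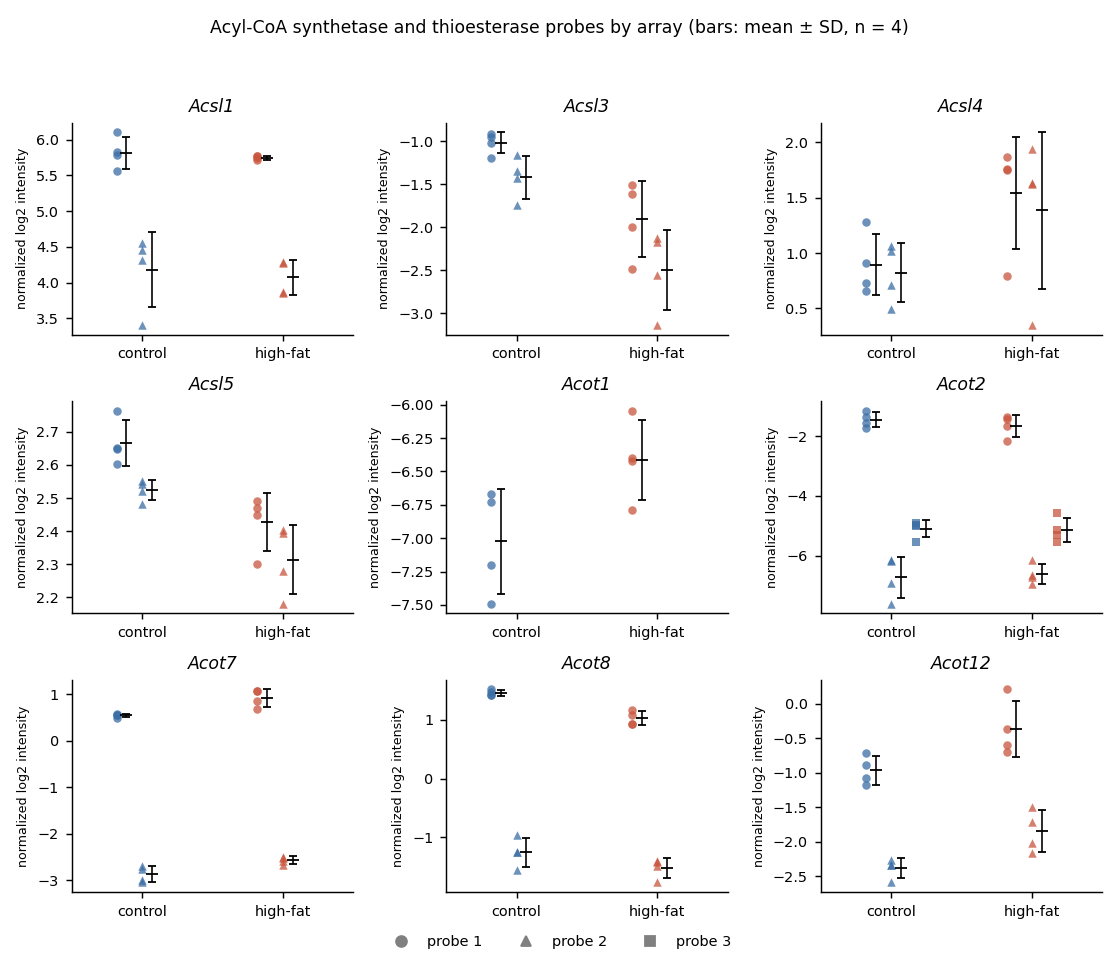
Normalized log2 intensity (vertical axes, each with its own range) of every tested member probe on the 4 control (blue) and 4 high-fat (red) arrays, with the marker shape giving the probe number and black bars the mean ± SD. Both probes of Acsl3 lie lower on all high-fat arrays than on any control array, and both probes of Acot7 and of Acot12 lie higher.

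Acsl3 encodes a synthetase of the endoplasmic reticulum and of forming lipid droplets. Probe 1, the brighter one, read -0.95, -1.19, -0.92 and -1.02 in control replicates 1 to 4, and -1.62, -2.0, -1.52 and -2.49 in high-fat replicates 1 to 4. Every high-fat array was below every control array. This gave a log2 change of -0.89 (95% interval -1.38 to -0.39, adjusted p = 0.11 by limma). Probe 2, which shares 24 of its bases, read -1.35, -1.75, -1.16 and -1.43 in the controls, and -2.12, -2.56, -2.17 and -3.14 on the high-fat diet. High-fat replicate 4 was the lowest by both probes, and again the groups did not overlap. Its log2 change was -1.08, or 2.11-fold (95% interval -1.63 to -0.52), and the adjusted p of 0.087 by limma missed the threshold. After normexp probe 2 passed with an adjusted p of 0.045 (log2 change -1.0), as it did among probes well above background on all 8 arrays, with an adjusted p of 0.047. Over its 22 alternatives the adjusted p ranged from 0.045 to 0.21.

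Acsl4, an enzyme that prefers arachidonic acid and other polyunsaturated fatty acids, has probe 1 at chrX:36231647-36231706 on the plus strand. This probe read 1.28, 0.66, 0.73 and 0.91 in control replicates 1 to 4, and 0.79, 1.75, 1.76 and 1.87 in high-fat replicates 1 to 4. High-fat replicates 2 to 4 were above all controls, while replicate 1 lay among them. A log2 change of 0.65 (95% interval 0.052 to 1.24, adjusted p = 0.29 by limma) resulted. Without high-fat replicate 1 it was 0.90 (adjusted p = 0.084), and without this array and control replicate 1 it was 1.03 (adjusted p = 0.079). Probe 2 had the same pattern, with 1.02, 1.06, 0.50 and 0.71 in the controls and 0.35, 1.63, 1.62 and 1.94 on the high-fat diet. Here high-fat replicate 1 was the lowest of all 8 arrays, and the log2 change was 0.56 (adjusted p = 0.48), or 0.91 without that replicate (adjusted p = 0.089).

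Acsl5 is a synthetase of the mitochondrial outer membrane and the endoplasmic reticulum. Its probe 1 read 2.76, 2.60, 2.65 and 2.65 in the controls and 2.30, 2.49, 2.47 and 2.45 on the high-fat diet. The overlapping probe 2 read 2.48, 2.54, 2.52 and 2.55, and then 2.39, 2.28, 2.40 and 2.18. Neither probe had overlapping groups, but the differences were small. The log2 changes were -0.24 (95% interval -0.50 to 0.019, adjusted p = 0.36) and -0.21 (adjusted p = 0.43) by limma, and since the probes read nearly the same site they count as 1 measurement.

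Acsl1, the major long-chain synthetase of liver, has probe 1 at chr16:49036985-49037044 on the minus strand. It read 6.10, 5.78, 5.83 and 5.56 in control replicates 1 to 4, and 5.77, 5.74, 5.78 and 5.71 in high-fat replicates 1 to 4. The high-fat arrays all lay within the range of the controls, whose SD was 0.22 against 0.029 on the high-fat diet (n = 4 each). The log2 change of -0.07 had a 95% interval from -0.39 to 0.25 (adjusted p = 0.87), and that of probe 2 was -0.11, from -0.71 to 0.49 (adjusted p = 0.89). Without control replicate 1 both changes turned positive, at 0.025 and 0.017. Acsl6, best known from brain, has probe 1 at chr10:39777717-39777776 on the plus strand and did not stand well above background on any array by either probe, so no difference could be measured.

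Acot8 is a thioesterase of peroxisomes with a wide choice of substrates, and its probe 1 lies at chr3:155828210-155828269 on the minus strand. It read 1.52, 1.47, 1.41 and 1.43 in control replicates 1 to 4, and 1.09, 1.16, 0.92 and 0.93 in high-fat replicates 1 to 4. The controls spanned a narrow range, and all high-fat arrays lay below it. Between the groups the log2 change was -0.43 (95% interval -0.70 to -0.17, adjusted p = 0.13 by limma), and -0.37 in the first slide row and -0.50 in the second. Probe 2 read -1.56, -0.96, -1.24 and -1.24 in the controls and -1.40, -1.49, -1.43 and -1.76 on the high-fat diet. Its groups overlapped because of control replicate 1, and its log2 change was -0.27 (95% interval -0.64 to 0.099, adjusted p = 0.49).

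Acot7, a cytosolic thioesterase best known from brain, has probe 1 at chr5:169501845-169501904 on the plus strand. It read 0.49, 0.55, 0.55 and 0.57 in control replicates 1 to 4, and 0.67, 1.07, 0.85 and 1.06 in high-fat replicates 1 to 4. All high-fat arrays were above the controls. For this probe the log2 change was 0.37 (95% interval 0.073 to 0.67, adjusted p = 0.23 by limma). Probe 2 read -2.99, -2.76, -3.05 and -2.69, and then -2.58, -2.68, -2.53 and -2.49, again with no overlap though only just. Its log2 change was 0.30 (adjusted p = 0.32).

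Acot12 encodes a cytosolic thioesterase of liver that acts on acetyl-CoA. By probe 1, at chr2:22035147-22035206 on the plus strand, it read -0.72, -0.89, -1.17 and -1.08 in the controls and -0.69, -0.59, -0.37 and 0.21 on the high-fat diet. The groups were apart by a small margin, with high-fat replicate 4 the highest. The log2 change was 0.61 (95% interval 0.11 to 1.10, adjusted p = 0.23 by limma), 0.16 within the first slide row and 1.05 within the second. Probe 2 read -2.26, -2.34, -2.59 and -2.33, and then -2.01, -2.16, -1.71 and -1.49, with no overlap. Its log2 change was 0.54 (95% interval 0.14 to 0.93, adjusted p = 0.20), with 0.21 within the first row.

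**Figure D2:**
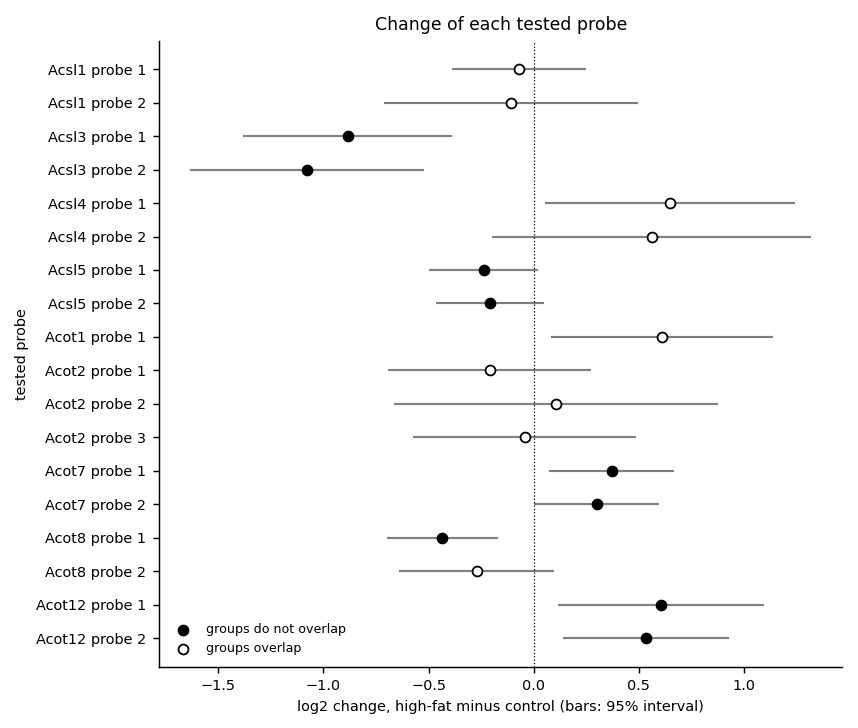
Log2 change, high-fat minus control, of each tested member probe (horizontal axis) with its 95% interval, n = 4 arrays per diet. Filled points mark probes whose groups do not overlap. The intervals of 9 of the 18 probes leave out 0 before adjustment, those of both Acsl3 probes lowest.

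Acot1, the cytosolic thioesterase known for its induction by peroxisome proliferators, was near the background. Probe 1, at chr6:108049691-108049750 on the plus strand, was well above it on 3 arrays of each diet. It read -7.20, -7.49, -6.73 and -6.67 in control replicates 1 to 4, and -6.05, -6.79, -6.42 and -6.40 in high-fat replicates 1 to 4. High-fat replicate 2 alone lay within the range of the controls, and the other 3 high-fat arrays were above it. The log2 change was 0.61 (95% interval 0.083 to 1.14, adjusted p = 0.26 by limma). It was 0.37 in the authors' deposited value table and 0.054 after normexp.

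Acot2, the mitochondrial thioesterase, had 3 tested probes that did not have one sign. Probe 1, at chr6:108024282-108024341 on the plus strand, read -1.16, -1.56, -1.37 and -1.73 in the controls and -1.44, -1.67, -2.18 and -1.38 on the high-fat diet. The groups overlapped, with high-fat replicate 3 the lowest array, and the log2 change of -0.21 had a 95% interval from -0.69 to 0.27 (adjusted p = 0.70 by limma). Without high-fat replicate 3 it was -0.039. The dim probe 2 had a log2 change of 0.11 (95% interval -0.67 to 0.88) and probe 3 one of -0.043 (-0.57 to 0.49).

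**Figure D3:**
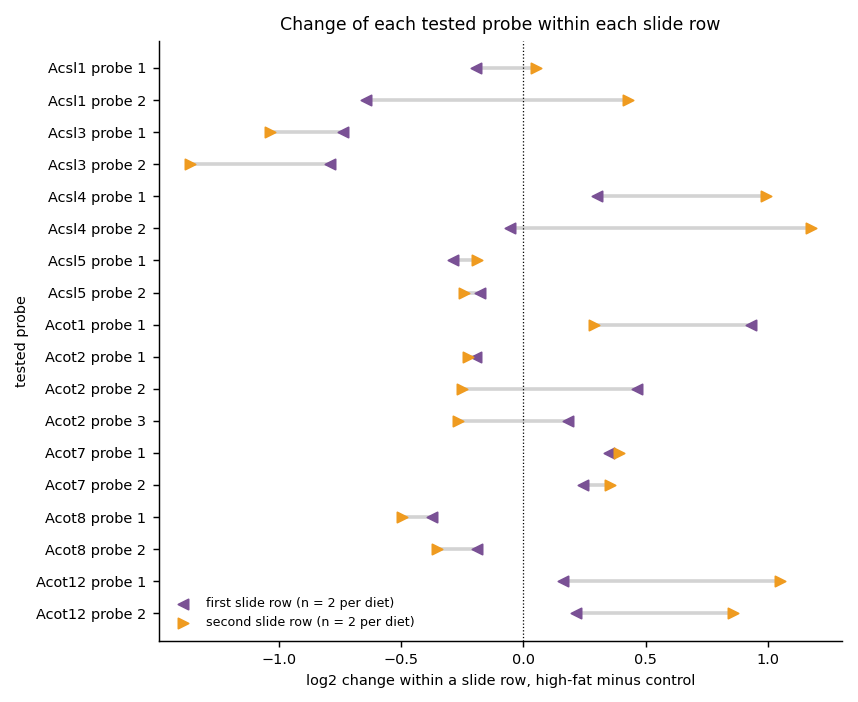
Log2 change, high-fat minus control, of each tested member probe within the first (purple) and the second (orange) row of the slide, from 2 arrays per diet in each. The Acsl3, Acsl5, Acot7 and Acot8 probes keep their sign and lie close together in both rows or, for Acsl3, lower in the second, while Acsl4 and Acot12 have most of their change in the second row.

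Across slide rows, the arrays of the first row include both of the arrays with the fewest probes above background. Acsl3 had log2 changes of -0.74 and -1.03 in the first and the second row by probe 1, and -0.79 and -1.36 by probe 2. Acot7 had 0.35 and 0.39 by probe 1. Acsl4 had 0.30 and 0.99 by probe 1 and -0.055 and 1.18 by probe 2, and Acot1 had 0.93 and 0.29. Without control replicate 1 and high-fat replicate 1, Acsl3 had -0.96 and -1.18 by its 2 probes, Acot8 -0.43 and -0.41, Acot7 0.44 and 0.26, Acot12 0.80 and 0.63, and Acot1 0.43. None of these passed the threshold.

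Genes with the most similar profile were sought for the 3 members with the lowest p, by the root mean square difference of log2 values over the 8 arrays after subtracting each gene's mean, among 18535 tested genes. For Acsl3 they included Sirpa (0.126) and Psmb9 (0.131). For Acot8 they were Slc5a3 (0.0513), Nme2 (0.0517) and RGD1560936 (0.0596), and for Acot7 Smurf2 (0.0629), MGC72612 (0.0697) and Clcn2 (0.0736). All points share the same 8 arrays, and 0 of these 8 genes passed the test.

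Acot1 and Acot2 belong to a cluster that holds, in the order of the GRCr8 table, Acot2, Acot1, Acot4, Acot3, Acot5 and Acot6, with 1 other protein-coding gene between Acot1 and Acot4. Acot6 did not stand well above background on any array. Acot4, named here after its values were seen, read -0.72, -0.17, 0.087 and -0.13 in the controls and -0.55, -0.88, -0.99 and -0.42 on the high-fat diet, a log2 change of -0.47 (adjusted p = 0.33 by limma). Acot3 read -3.28, -4.77, -5.07 and -4.77, and then -5.44, -5.95, -5.76 and -5.77, with no overlap. By this probe, the brighter one, its log2 change was -1.26 (adjusted p = 0.16 by limma). The other Acot3 probe had -0.46, with overlapping groups. Array annotation names the Acot5 transcript as the next best hit of the brighter Acot3 probe, with 80.0% identity over 50 bases. Cross-hybridisation between Acot3 and Acot5 was not tested. Acot5, known in mouse as a peroxisomal thioesterase, read -1.06, -0.68, 0.66 and 0.31, and then -0.19, -2.51, -2.50 and -2.78. High-fat replicate 1 lay among the controls and the other 3 were below them (log2 change -1.80, adjusted p = 0.22; -1.47 by its other probe). In this cluster, 4 of 5 tested genes had a negative and Acot1 a positive change, and none passed.

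**Figure D4:**
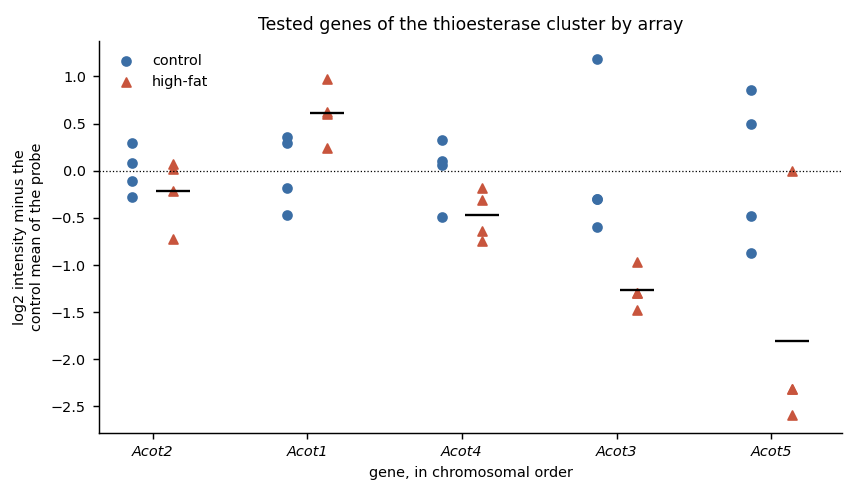
Log2 intensity of the brightest tested probe minus its control mean (vertical axis) for the tested genes of the thioesterase cluster in chromosomal order, with control arrays in blue, high-fat arrays in red and the high-fat mean as a black line. The high-fat mean lies above 0 for Acot1 only, and the high-fat arrays of Acot3 lie below all controls.

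Among the other acyl-CoA synthetases, 14 of 20 listed genes were tested, with a median log2 change of -0.041 and 7 negative changes. By its brightest tested probe, 1 gene passed the threshold as lower. This was Aacs, acetoacetyl-CoA synthetase of the cytosol, which feeds ketone bodies into lipid synthesis. It read -2.93, -4.59, -1.95 and -3.26 in control replicates 1 to 4, and -7.12, -6.19, -6.47 and -6.33 in high-fat replicates 1 to 4. The groups lay far apart, and the log2 change was -3.35 (95% interval -4.48 to -2.21, adjusted p = 0.032 by limma). This probe was well above background on 4 control and 3 high-fat arrays. Its high-fat values lay near the background, which limits the size of the change. Acss2, which makes cytosolic acetyl-CoA from acetate, read 0.16, 0.18, 0.61 and 0.80, and then -1.34, -0.98, -0.27 and -0.72. Its log2 change was -1.26 (adjusted p = 0.064) by the brighter probe and -1.22 (adjusted p = 0.040) by the other, so only the other probe passed. Acsm3, a medium-chain synthetase of mitochondria, had 1.09 (adjusted p = 0.14).

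For the other thioesterases, 11 of 16 listed genes were tested, 0 passed, and the median was -0.016. The lowest p was that of Acot9, a mitochondrial thioesterase, with -1.45, -1.62, -1.61 and -1.12 in the controls and -2.13, -2.34, -2.22 and -2.38 on the high-fat diet. Its groups did not overlap, and the log2 change of -0.82 (95% interval -1.16 to -0.48) just missed the threshold with an adjusted p of 0.0505 by limma. The other Acot9 probe, also without overlap, had -0.62 and was further from the threshold (adjusted p = 0.14 by limma). Acot3 and Acot5, given above, followed Acot9.

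Acyl-CoA binding proteins and carnitine transferases, which take up the product of the synthetases, had a median log2 change of 0.016 over 15 tested of 16 listed genes. The 1 that passed was Cpt1b, the muscle form of carnitine palmitoyltransferase 1, which fell from -0.19, -0.78, -1.47 and -1.31 in the controls to -3.17, -3.40, -4.34 and -3.38. Its log2 change was -2.64 (95% interval -3.42 to -1.86, adjusted p = 0.020 by limma) and -2.69 by a second probe (adjusted p = 0.044). That second probe was well above background on 4 control and 2 high-fat arrays. Dbi, the acyl-CoA binding protein, had -0.41 (adjusted p = 0.31), and Cpt1a, the liver form, 0.79 (adjusted p = 0.35).

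PPAR-alpha and its targets had a median log2 change of 0.11, positive in 18 of 27 tested genes, and 0 passed. The lowest p belonged to Acadm (0.56, adjusted p = 0.12), Acadl (0.47, adjusted p = 0.13) and Cyp4a2 (1.44, adjusted p = 0.20), the first a medium-chain and the second a long-chain acyl-CoA dehydrogenase. Of the 11 tested lipogenic genes 10 had a negative change, with a list median of -1.57. Among these, 4 passed the threshold as lower. They were Acly (-1.84, adjusted p = 0.015), Elovl6 (-3.03, adjusted p = 0.016), Acacb (-1.57, adjusted p = 0.023) and Fasn (-2.99, adjusted p = 0.025), all by limma. The other Acacb probe had -1.46 (adjusted p = 0.061 by limma) and did not pass. Acly, Elovl6 and Fasn take part in making long-chain fatty acids from citrate. A link between these changes and the member genes was not tested.

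**Figure D5:**
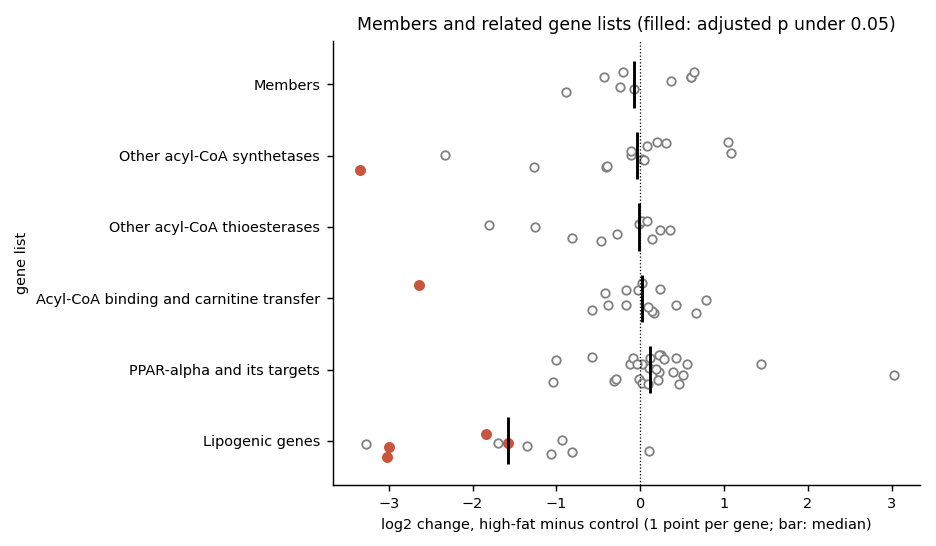
Log2 change, high-fat minus control, of each tested gene (1 point per gene, horizontal axis) in the member list and 5 related lists, with black bars at the list medians and filled points for an adjusted p under 0.05. Filled points stand in the lists of other synthetases, of binding and carnitine transfer and of lipogenic genes, all below 0, and the median lies near 0 in every list but the lipogenic one, at -1.57.

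The 250 bases before the transcription start of each member were searched in the RefSeq promoter table of GRCr8, which held 11 promoters for the 10 genes. Both strands were searched for AGGTCA, the element many nuclear receptors read, for a direct repeat of it with 1 base between, for CACGTG and for TCACNCCAC. AGGTCA stood in 2 of the 11, those of Acot8 and Acot12, against 14.1% of 33469 promoters of the same length. The direct repeat (0.051% of all promoters), CACGTG (5.59%) and TCACNCCAC (0.974%) stood in 0 of the 11. Only exact matches were counted, so imperfect repeats were left out. In Acot8, gggtcag stands directly before AGGTCA, which is a direct repeat with 1 mismatch. In Acot12, ctcacct stands directly after TGACCT, which on the opposite strand is also a direct repeat with 1 mismatch. The imperfect repeat therefore does not set the 2 promoters apart. How many other promoters hold such an imperfect repeat was not counted. The 2 promoters are shown because these genes had changes of opposite sign, Acot8 negative and Acot12 positive, with the motif in capitals. They are those of Acot8 (chr3:173962189-173962438, minus strand) and Acot12 (chr2:24721709-24721958, plus strand) on GRCr8. The motif begins 15 bases before the start in Acot8, and in Acot12 it begins 105 bases before the start on the opposite strand. A match describes these letters and not a site in use.
Acot8: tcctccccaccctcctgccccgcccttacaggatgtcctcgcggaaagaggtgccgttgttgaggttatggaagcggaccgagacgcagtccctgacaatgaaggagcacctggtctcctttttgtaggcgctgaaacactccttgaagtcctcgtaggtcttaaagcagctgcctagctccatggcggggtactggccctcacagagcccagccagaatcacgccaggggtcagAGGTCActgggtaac
Acot12: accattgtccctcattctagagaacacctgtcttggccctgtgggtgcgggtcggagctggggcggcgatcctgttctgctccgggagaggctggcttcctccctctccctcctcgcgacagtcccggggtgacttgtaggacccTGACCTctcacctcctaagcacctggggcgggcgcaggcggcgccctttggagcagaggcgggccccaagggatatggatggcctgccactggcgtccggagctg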

How the data were processed

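RNA of 8 rat liver samples, 4 per diet, was read on 1-colour arrays. Agilent Feature Extraction 10.7.3.1 gave the intensity of each spot after background subtraction, per the file headers. Log2 values are held in the authors' deposited value table, whose scaling is not given in the sources used here. Its columns correlated at 0.999 or more with the scanner values scaled to each array's 75th percentile, with no centring per probe. Its medians were -3.10, -3.21, -3.14 and -3.17 for control and -3.14, -3.20, -3.16 and -3.20 for high-fat replicates 1 to 4.

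Control spots and flagged outlier spots were left out, spots of a probe were averaged, and the log2 processed signal had the array's 75th percentile subtracted, taken over the 48.0% of probes that stood well above background on all 8 arrays. Probes that stood well above background on 4 or more arrays entered the moderated test of limma 3.58.1 (lmFit, eBayes; R 4.3.3), at a threshold of 0.05 after Benjamini-Hochberg adjustment. The fit was tested on simulated data. A gene stands for its brightest tested probe. Summed levels of markers are sums of linear values relative to that percentile. Named genes are all members, and of each related list those past the threshold and the 3 with the lowest p. The members and lists were chosen with earlier results of these data known. One gene of similar profile is not reported here. Accessions of all 21 member probes matched the same symbol in the GRCr8 table.

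The labels do not say that samples are separate animals, so the p-values cover only the spread among the 8 samples, which may be technical. The number of arrays limits the precision. Deviations of same-numbered samples correlated at -0.12 to 0.26, above 0.1 in 2 of 4 pairs. High-fat replicate 2 and control replicate 1, which differ in number, correlated at 0.29. Only 1 of the 4 high-fat replicates correlated best with the control of its own number, so numbers were not taken to pair samples. Alternatives changed the background correction, scaling, filter, variance model, array weights, blocks, threshold and single arrays. Leaving out both of the arrays with the fewest probes above background was chosen after seeing the data.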

Additional observations from a re-analysis of the deposited data

Results flagged for a closer look

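In 74 sets of 4 values, those of the member probes and of the related genes named by the rule, 1 sample stood far from the other 3 of its group in 5 sets, where chance gives about 1 in 20. High-fat replicate 1 read 0.79 for Acsl4 probe 1, against 1.75 to 1.87 in the other high-fat samples. It also read -0.19 for Acot5, against -2.78 to -2.50. Control replicate 1 read -6.91 for Acsl6 probe 1, against -9.55 to -9.20, all of them not well above background. The same control sample read -3.28 for Acot3, against -5.07 to -4.77. Control replicate 2 read -5.53 for Acot2 probe 3, against -5.01 to -4.92. Outside these sets, control replicate 4 read -4.67 for Acsf3, against -1.83 to -1.53 in the other controls. Acsf3 was picked for this split, so it is not set against chance.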

How the results depend on the processing

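The log2 changes of Acsl3, Acsl4, Acsl5, Acot1, Acot7, Acot8 and Acot12 kept their sign in every alternative run, by each tested probe, and 0 member genes passed in any, each by its brightest tested probe or the mean of its probes. The count of member probes past the threshold was 0 in the main test. It was 1, Acsl3 probe 2 each time, after normexp, among probes well above background on all 8 arrays and at a threshold of 0.1, the last added after seeing the data. The count of all tested probes past the threshold, 286, was 10 with no filter on dim probes, 91 with a filter of at least 1 array, 527 with all 8 arrays, 543 with trend and robust variance, 14 with each probe's own spread, 167 with slide row as a block, 1 with a replicate block, 838 at a threshold of 0.1, 25 without control replicate 1 and high-fat replicate 1 together, and 23 to 154 with 1 array left out. The replicate block gave 0 member probes. Signs turned for small changes. Without those same 2 arrays Acsl1 had 0.019 by probe 1 and 0.083 by probe 2, and with 1 array left out they ranged from -0.16 to 0.025 and from -0.37 to 0.017. Acot2 probe 2 had -0.13 after normexp, -0.10 with array weights and -0.17 without the 2 arrays, and ranged from -0.19 to 0.29 with 1 array left out, and Acot2 probe 3 from -0.23 to 0.089. The causes were not tested. Acot1, near background, and Acsl6, under it, are limited by signal.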

Other observations

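Acsf3, a mitochondrial malonyl-CoA synthetase among the other acyl-CoA synthetases, was picked out after its values were seen. It read -1.53, -1.83, -1.66 and -4.67 in control replicates 1 to 4, and -4.37, -4.65, -4.99 and -4.97 in high-fat replicates 1 to 4. Control replicate 4 lay among the high-fat samples and the other 3 controls far above them. The log2 change was -2.32 (95% interval -3.80 to -0.84, adjusted p = 0.15 by limma), which did not pass. Its other probe had the same split, with -2.77, -2.17, -2.32 and -5.50 in the controls and -5.29, -5.75, -5.32 and -5.53 on the high-fat diet.

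Acsl4 and Acot5, which lie on different chromosomes, both had high-fat replicate 1 on the side of the controls and the other 3 high-fat samples beyond them. Control replicate 1, on the same slide row, was the highest control for Acsl4 probe 1 at 1.28 and the lowest for Acot5 at -1.06. By Acsl4 probe 2, control replicate 2 was the highest control at 1.06, with control replicate 1 at 1.02. High-fat replicate 1 and control replicate 1 are the arrays with the fewest probes above background. Acsl4 and Acot5 were set side by side after their values were seen.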
